A study of Rattus norvegicus with 4 samples.

Results

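In differentiating rat CG4 cells that carried a Phf8 retrovirus, transcripts of the myelin proteins Mbp and Tspan2 rose, by 1.81-fold and 1.31-fold, and no gene of this group fell. Mobp and Cnp lay higher in both Phf8 libraries than in both control libraries, by 1.36-fold and 1.23-fold, but did not pass the test. Cldn11 and Opalin had nearly equal group means, and Pllp was measured at low values. The genes were the 8 named as structural proteins of compact myelin: Mbp, Mobp, Cnp, Mal, Pllp, Cldn11, Opalin and Tspan2. Of these, 7 were found by symbol among the 14410 genes of the deposited table, and all 7 were among the 14368 genes tested. Mal was not analysed here. The rule names genes by function and uses no measured value, but it was written with earlier results of these data known.

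CG4 is a rat glial progenitor line that can become oligodendrocytes, which make the myelin of brain and spinal cord. All 4 libraries came from WT CG4 cells infected with a retrovirus, sorted for GFP, expanded and then held for 3 days in differentiation medium. The 2 ctrl libraries carried CAG-IRES-GFP (genotype WT, GFP+) and the 2 Phf8oe libraries CAG-Phf8-IRES-GFP (genotype WT, Phf8+ GFP+), so both groups express GFP and differ in the added Phf8, a histone lysine demethylase. CAG is a strong, broadly active promoter, so the added Phf8 is not under its own control. The labels number biological replicates 1 and 2 in each group but do not say whether these were separate transductions, so p-values measure the spread between these preparations only. The labels call the cells oligodendrocyte progenitors under differentiation, and of the defining markers both mature ones (Mag, Mog) and a progenitor one (Pdgfra) were detected. Phf8 itself stood at 2026 and 2205 normalized counts in ctrl and at 5650 and 10796 in Phf8oe. That is a 3.69-fold difference, which missed the threshold (limma adjusted p = 0.0631). It passed without robust moderation (adjusted p = 0.0194), and without Phf8oe replicate 1 or 2 (limma adjusted p = 9.51e-12 and 3.16e-08), fits in which the spread comes from the ctrl libraries alone. With a library left out its log2 fold change ran from 1.42 to 2.35.

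A normalized count is the number of reads of a gene multiplied by 1 factor per library. It is not divided by transcript length, so levels are compared between libraries and not between genes. Reads in the listed genes, in units of 1e6, were estimated at 47.8 and 39.3 in ctrl and 43.1 and 28.4 in Phf8oe.

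Myelin is a spiral of glial plasma membrane whose layers are pressed together. Mbp, a basic protein, binds the inner leaflets to each other across the cytoplasm, and its messenger RNA is carried to the growing sheath and translated there. Cnp, a cyclic nucleotide phosphodiesterase, keeps cytoplasm-filled channels open and lies mainly in the uncompacted parts, so this group of genes is wider than compact myelin in the strict sense. Mobp is again a basic protein, and the other members are membrane proteins, among them the claudin that seals myelin layers (Cldn11), a tetraspanin (Tspan2) and the raft protein Mal with its relative Pllp.

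The DNA before the annotated starts of the 8 genes was searched for letters that oligodendrocyte transcription factors are known to bind. RefSeq, assembly GRCr8, gave a window for all 8 genes and 2 windows for Mbp, and the 250 bases before each start were read. That assembly is not the build behind the counts (rn6 and Rnor_6.0). Searched on both strands were ACAAAG and ACAATG, which SOX factors such as Sox10 bind, CTGGNAC, a loose form of the Myrf motif, and CAGCTG, an E box of basic helix-loop-helix factors. Of all 33469 windows of this length, 16.3% held ACAAAG, 11.1% ACAATG, 14.8% CTGGNAC and 12% CAGCTG. Shown are Mobp, the window richest in SOX-type letters, Opalin, which held all 4 motifs, Cnp, which held 3, and Tspan2, a gene that rose and held none. They lie at chr8:128746982-128747231 on the plus strand, chr1:249858191-249858440 on the minus strand, chr10:86011254-86011503 on the plus strand and chr2:192866030-192866279 on the plus strand, and capitals mark matches, which do not overlap each other.
Mobp: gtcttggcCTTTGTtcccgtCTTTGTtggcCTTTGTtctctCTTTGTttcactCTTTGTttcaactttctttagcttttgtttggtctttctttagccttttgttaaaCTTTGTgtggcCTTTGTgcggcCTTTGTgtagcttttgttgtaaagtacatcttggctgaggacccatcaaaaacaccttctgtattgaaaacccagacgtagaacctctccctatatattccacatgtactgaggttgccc
Opalin: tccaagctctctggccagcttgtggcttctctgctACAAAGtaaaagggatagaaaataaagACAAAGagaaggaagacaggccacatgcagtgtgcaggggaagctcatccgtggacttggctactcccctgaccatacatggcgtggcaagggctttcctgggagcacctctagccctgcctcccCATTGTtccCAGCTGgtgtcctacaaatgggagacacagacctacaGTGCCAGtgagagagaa
Cnp: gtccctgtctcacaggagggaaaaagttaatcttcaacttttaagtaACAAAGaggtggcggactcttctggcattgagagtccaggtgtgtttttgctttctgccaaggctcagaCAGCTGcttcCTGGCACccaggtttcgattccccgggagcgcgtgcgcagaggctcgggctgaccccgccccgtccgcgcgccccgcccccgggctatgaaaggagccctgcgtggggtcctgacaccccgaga
Tspan2: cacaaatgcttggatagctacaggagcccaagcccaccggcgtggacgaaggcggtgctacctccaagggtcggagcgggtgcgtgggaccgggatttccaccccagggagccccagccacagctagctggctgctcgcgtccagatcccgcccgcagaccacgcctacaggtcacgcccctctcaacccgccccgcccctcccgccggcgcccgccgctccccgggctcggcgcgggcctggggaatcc

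The Mobp window held 8 matches to ACAAAG, all on the opposite strand, the first at -242 and the last at -120 from the start. Only 2 of the 33469 windows (0.00598%) held as many. The matches recur at short, nearly even steps from -242 to -197 and from -142 to -120. They form a repeat, so they cannot be counted as 8 independent matches. Opalin held 2 of that motif and 1 each of the others. At Cnp the E box at -134 and the Myrf-type match at -124 lay close together. The upstream window of Mbp had 1 Myrf-type match. The window at its other start, inside the gene, had 1 ACAAAG, 2 ACAATG and 1 E box. Cldn11 and Mal each had 1 Myrf-type match, and Pllp, like Tspan2, had none. The windows with matches thus include genes that did not pass the test, and a gene that rose had none of the 4. A match is a stretch of letters and not a measured binding site.

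**Figure D1:**
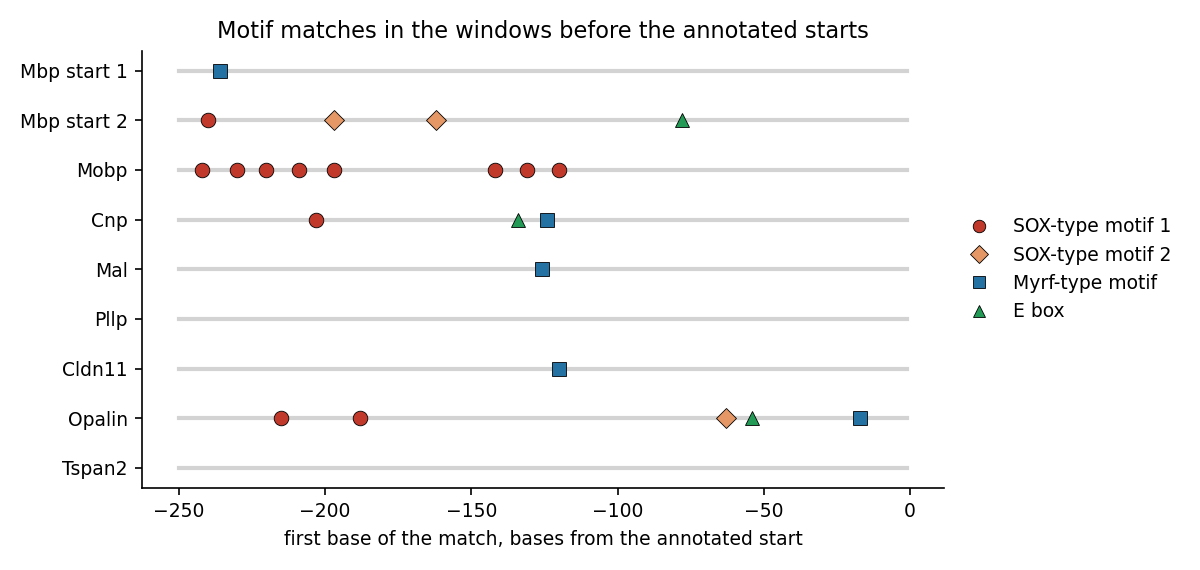
Matches to the 4 motifs in the 250 bases before each annotated start of the 8 genes, by the distance of the match's first base from the start in bases. Mobp carries a row of 8 SOX-type matches, and the lines of Tspan2 and Pllp are empty.

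Of the 7 tested genes, 2 rose in Phf8oe and none fell (limma, Benjamini-Hochberg adjusted p under 0.05 over all 14368 genes). Over all genes tested, 2.99% rose, 4.65% fell and 7.64% passed in either direction. At an unadjusted p under 0.05, 4 of the 7 were higher and 0 lower. Of all 14368 genes, 3778 lay under that p in either direction. Limma-voom on estimated reads also called 2 members higher and 0 lower, beside 492 higher and 889 lower over all genes. The log2 fold change was above 0 in 5 of the 7, against 50.4% of all genes, and the median was 0.30 against 0.0032. In 4 of the 7 both Phf8oe libraries lay above both ctrl libraries, which held for 28.9% of all genes. More oligodendrocytes in a culture and more RNA per oligodendrocyte cannot be told apart in bulk samples.

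Mbp, the main protein of the cytoplasmic face, had 184442 and 173338 normalized counts in ctrl (replicate 1 first, here and below) and 340486 and 308875 in Phf8oe. The groups were far apart and the replicates within each close, at ratios of 1.06 in ctrl and 1.10 in Phf8oe. The log2 fold change was 0.86 (SE 0.12, limma adjusted p = 0.00623), or 1.81-fold with a 95% interval from 1.5-fold to 2.19-fold. By p the gene ranked 117 of 14368, and by fold 105 among the 430 genes that rose. Its share of all values in a library was 0.457% and 0.434% for ctrl and 0.827% and 0.767% for Phf8oe. The call was lost without ctrl replicate 1 (limma adjusted p = 0.136) or ctrl replicate 2 (adjusted p = 0.0776), fits in which the spread comes from the Phf8oe libraries alone, and in a fit with no variance trend (adjusted p = 0.1). The value is the total for the gene, which also encodes the longer golli proteins from an upstream start.

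Mobp is a small basic protein thought to act, like Mbp, between the inner leaflets. It stood at 273 and 312 in ctrl and at 356 and 446 in Phf8oe. The Phf8oe libraries were both higher, but the gap between the groups was smaller than the gap between the Phf8oe replicates. The log2 fold change was 0.45 (SE 0.18, limma adjusted p = 0.157), with an interval from 1.03-fold to 1.81-fold. It moved from 0.29 without Phf8oe replicate 2 to 0.61 without Phf8oe replicate 1.

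Cnp had 88808 and 90707 in ctrl and 106536 and 114374 in Phf8oe. Both groups were tight, with ratios between replicates of 1.02 and 1.07, and did not overlap. The log2 fold change of 0.30 (SE 0.11) did not pass the threshold (limma adjusted p = 0.126). Its interval ran from 1.03-fold to 1.46-fold, and that of Mbp began at 1.5-fold.

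Tspan2, a tetraspanin of the oligodendrocyte membrane, had 6762 and 6730 in ctrl and 9030 and 8623 in Phf8oe. The ctrl libraries were nearly identical, and the Phf8oe libraries were both higher. The log2 fold change was 0.39 (SE 0.10, limma adjusted p = 0.0431), or 1.31-fold, and by fold the gene ranked 427 of the 430 that rose. The call lay close to the threshold and was lost without robust moderation (adjusted p = 0.0545), without the variance trend (adjusted p = 0.169), and without ctrl replicate 1, ctrl replicate 2 or Phf8oe replicate 1 (limma adjusted p = 0.334, 0.193 and 0.0541). In GRCr8 the gene overlaps Tshb, whose values were 7 and 8 in the first group, ctrl, and 12 and 18 in the second; the use of strand in counting is not stated.

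Cldn11, which forms the tight junction strands between myelin layers, stood at 993 and 745 in ctrl and at 701 and 1041 in Phf8oe. The groups overlapped fully, the Phf8oe libraries holding both the lowest and the highest value. The means were 869 ± 175 and 871 ± 240 (SD, n = 2), a log2 fold change of -0.01 (SE 0.23). The interval from 0.682-fold to 1.45-fold still allows a change of the size seen in Tspan2 or Mobp. It does not reach the 1.81-fold of Mbp.

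Opalin, a sialylated membrane glycoprotein of oligodendrocytes, stood at 258 and 316 in ctrl and at 236 and 340 in Phf8oe. Again the Phf8oe libraries held the lowest and the highest value. The means were 287 ± 41.0 and 288 ± 73.5 (SD, n = 2), and the interval ran from 0.703-fold to 1.40-fold. The log2 fold changes of Cldn11 and Opalin, both -0.01, became 0.033 and 0.031 with upper quartile scaling, which shifts all genes alike and put the median of all genes at 0.0455.

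Pllp, plasmolipin, a tetraspan proteolipid of the MARVEL domain family, was at 36 and 20 in ctrl and at 29 and 34 in Phf8oe. These values rest on 20 to 43 estimated reads a library. The Phf8oe values lay between the ctrl values, and the interval from 0.637-fold to 2.12-fold excludes neither a fall nor a rise like that of Mbp. At this depth a difference within that interval was not detectable.

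**Figure D2:**
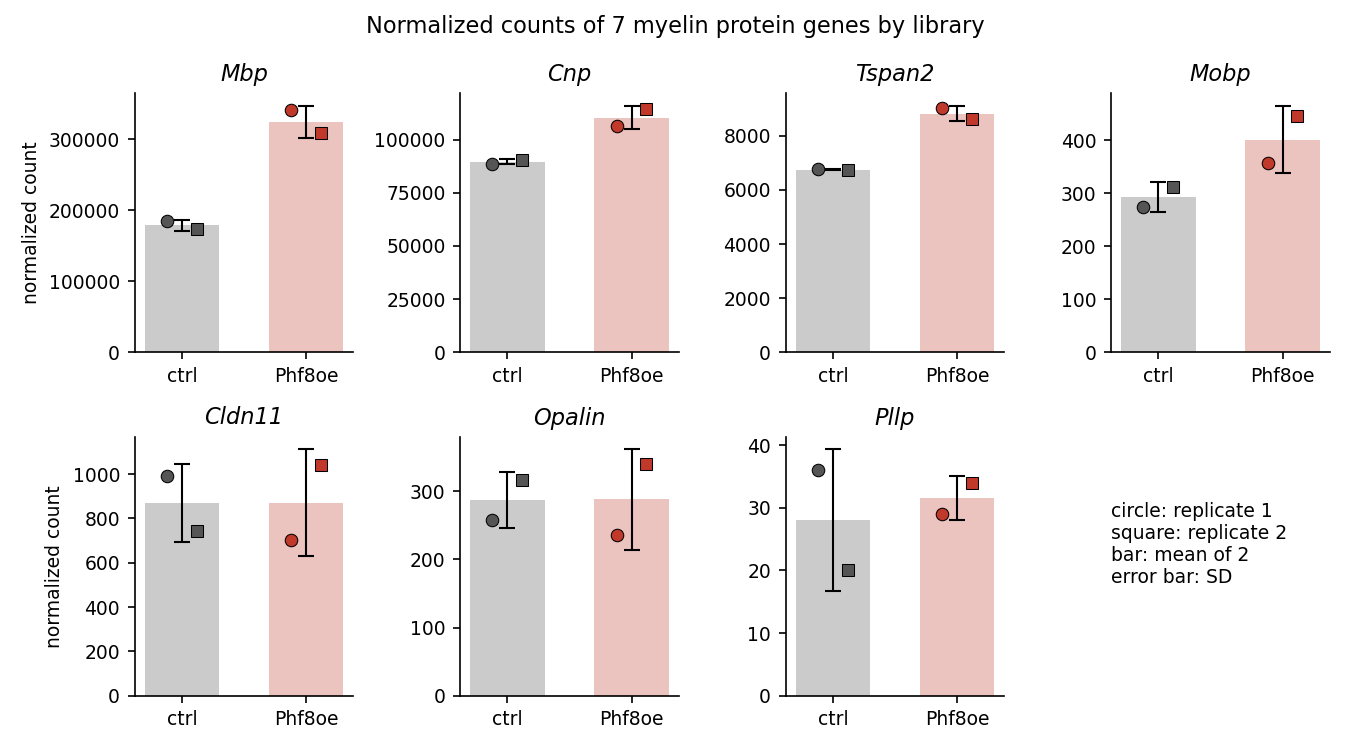
Normalized counts of the 7 measured genes, with bars for group means, error bars for SDs over 2 libraries and points for libraries, each panel on its own axis from 0. In Mbp, Cnp, Tspan2 and Mobp both Phf8oe points lie above both ctrl points, whereas in Cldn11, Opalin and Pllp the groups overlap.

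**Figure D3:**
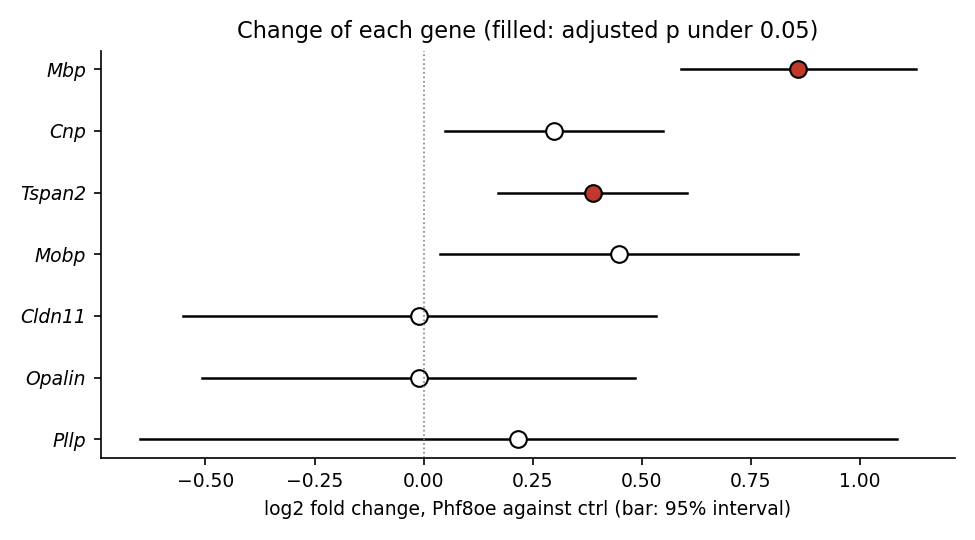
Log2 fold change of each gene, Phf8oe against ctrl, with the 95% interval from limma. The filled points, Mbp at 0.86 and Tspan2 at 0.39, passed at an adjusted p under 0.05, and Cldn11 and Opalin lie at -0.01.

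The members did not keep their proportions, and a ratio within a library does not depend on how libraries are scaled. The ratio of Mbp to Cnp counts was 2.08 and 1.91 in ctrl but 3.2 and 2.7 in Phf8oe. Both Phf8oe ratios were higher, with a mean difference of 0.56 on the log2 scale. Mbp to Cldn11 went from log2 ratios of 7.54 and 7.86 to 8.92 and 8.21, and Mbp to Mobp from 9.39 and 9.11 to 9.90 and 9.43, the last pair of groups standing only narrowly apart. Opalin to Mobp was lower in both Phf8oe libraries, at -0.59 and -0.39 against -0.08 and 0.02. Tspan2 to Cldn11 overlapped, at 2.77 and 3.17 in ctrl and 3.69 and 3.05 in Phf8oe. An exact two-sided permutation test gave p = 0.333 for the first 4 of these 5 ratios and p = 0.667 for Tspan2 to Cldn11 (adjusted over the 5, 0.416 and 0.667). With 2 libraries against 2 the smallest p this test can give is 0.333, so the unequal change of the members is a description. Of the summed values of the 7 genes Mbp made up 65.5% and 63.7% in ctrl and 74.4% and 71.2% in Phf8oe, while Cnp went from 31.5% and 33.3% to 23.3% and 26.4%.

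**Figure D4:**
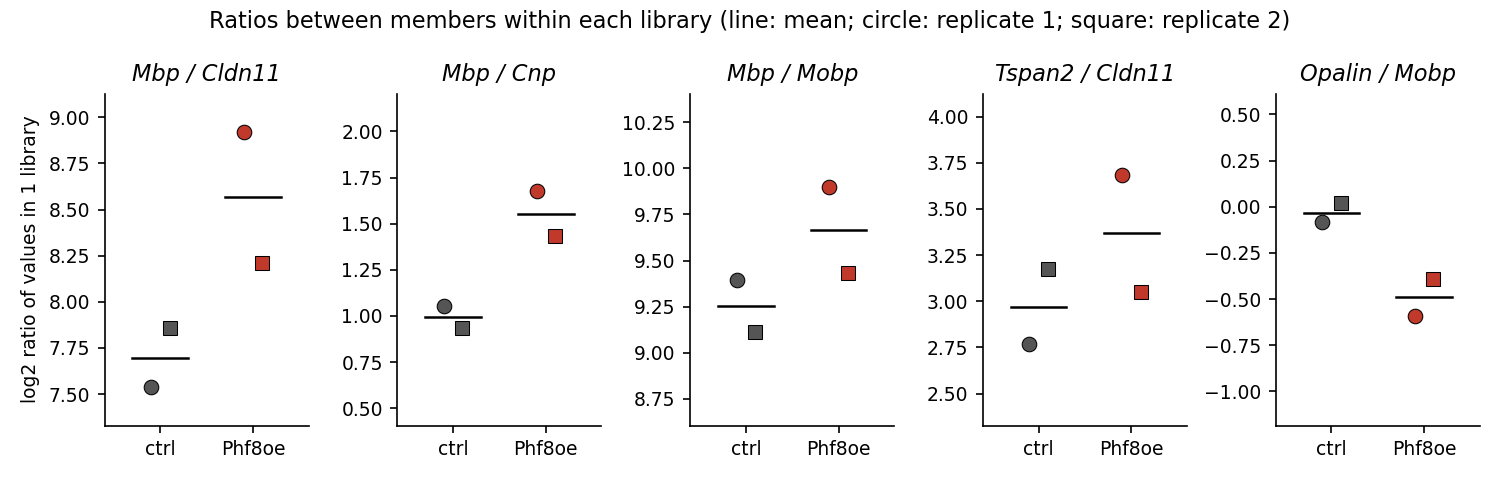
Log2 ratio of the normalized counts of a pair of genes in each library, with lines for group means; every panel spans the same height. Ratios of Mbp to the other genes are higher in both Phf8oe libraries, and Tspan2 to Cldn11 overlaps.

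Within Phf8oe, replicate 1 was the higher library for Mbp and Tspan2, whereas replicate 2 was the higher for Mobp, Cnp, Cldn11, Opalin and Pllp. Replicate 2 was also the library with more Phf8, at 10796 against 5650. With 2 libraries no relation to the Phf8 level can be tested.

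The genes whose pattern over the 4 libraries was most like a member were sought among 10601 genes with a mean of at least 100, by the root mean square difference of centred log2 values. Nearest to Mbp were Bcap29, an endoplasmic reticulum membrane protein, at 0.019, Rgr at 0.036 and Epb41l4a at 0.038 log2 units. Bcap29 rose 1.84-fold, from 678 and 647 to 1264 and 1177. Nearest to Cldn11 were Borcs8, Cdh19, a cadherin of glia, and Aspa, the aspartoacylase of oligodendrocytes that frees acetate for lipid synthesis. Aspa followed Cldn11 library by library, at 290 and 228 in ctrl and at 225 and 303 in Phf8oe. Nearest to Pllp were Sds, Npff and Gjc3, to Opalin Cdc42ep4, Gli2 and Adamts17, to Cnp Ak3, Mrps26 and Polr1b, to Mobp Umps, Ifrd2 and Gtpbp10, and to Tspan2 Rps6, Noa1 and Alkbh7. Over only 4 libraries many genes share a pattern.

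Of 46 further genes measured in the list for myelin and mature oligodendrocytes, 13 rose (28.3%, against 2.99% of all genes), 2 fell (4.35%, against 4.65%) and 31 did not pass. The log2 fold change was above 0 in 28 (60.9%, against 50.4% of all genes), with a median log2 fold change of 0.29 beside the members' 0.30. Gpr37, a receptor that times oligodendrocyte maturation, rose 2.18-fold, from 266 and 245 to 499 and 623. Plekhb1 rose 1.59-fold, Josd2 1.56-fold, and Tmem63a, a mechanosensitive ion channel, fell 1.91-fold, from 607 and 610 to 359 and 283. Mag, an adhesion protein facing the axon, rose 1.71-fold and Mog, on the outermost layer, 1.6-fold. Of 22 measured genes of committed and premyelinating cells 1 rose (4.55%, against 2.99% of all genes), Bmp4, by 1.59-fold, and 0 fell. Their median log2 fold change was 0.23, and limma-voom called 3 higher and 0 lower. At an unadjusted p under 0.05, 7 were higher and 2 lower, beside 3778 of all 14368 genes in either direction.

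Among 27 transcription regulators of myelin genes 1 rose (3.7%, against 2.99% of all genes) and 2 fell (7.41%, against 4.65%). Zfp488, a zinc finger protein that promotes oligodendrocyte differentiation, rose 1.52-fold. Rxrg fell 3.02-fold, from 455 and 482 to 171 and 139, and Nfatc2 fell 1.6-fold. Of 23 genes for transport and local translation of Mbp messenger RNA, 2 fell (8.7%, against 4.65% of all genes) and 21 did not pass. The kinesin heavy chain gene Kif5c fell 1.63-fold, from 12943 and 11561 to 7991 and 7070, and the dynein heavy chain gene Dync1h1 1.67-fold. In that list 18 of 23 log2 fold changes were below 0 and 21.7% above it, against 50.4% of all genes above 0. In 13 of the 23 both Phf8oe libraries lay under both ctrl libraries, against 28.7% of all genes. Of 19 genes of membrane traffic to myelin, 2 fell (10.5%, against 4.65% of all genes) and 17 did not pass. Rab31 fell 1.74-fold and the tetraspanin gene Cd63 1.62-fold.

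The relatives of the members did not share one direction. The MARVEL domain family holds Mal and Pllp. Of its 19 measured genes 2 rose (10.5%, against 2.99% of all genes) and 1 fell (5.26%, against 4.65%). Cmtm8 rose 1.73-fold and Cmtm7 1.67-fold, and the synaptic vesicle gene Synpr fell 2.64-fold. The most abundant relatives had log2 fold changes of 0.38 (Syngr2), 0.21 (Cmtm5) and 0.09 (Myadm), none past the threshold. Of 22 tetraspanin genes, the member Tspan2 included, 3 rose (13.6%, against 2.99% of all genes) and 1, Cd63, fell (4.55%, against 4.65%). Those that rose were Tspan2, Tspan13, by 1.37-fold, and Tspan18, by 2.24-fold. In that list 14 of 22 log2 fold changes were below 0, with a median of -0.06. Cd9 and Cd81, which like Tspan2 are found in myelin membranes, stood at log2 fold changes of -0.19 and -0.27 and did not pass. Of 9 claudin family genes 0 passed in either direction, in limma and in limma-voom alike. At an unadjusted p under 0.05, 2 were higher and 0 lower, beside 3778 of all 14368 genes in either direction. Cldnd1, Cldn12 and Cldn9 had log2 fold changes of -0.05, 0.39 and -0.20. Of 17 partners of claudins at tight junctions 5 fell (29.4%, against 4.65% of all genes) and 0 rose. Among those that fell were the scaffold genes Tjp1, by 1.42-fold, Patj, by 2.2-fold, and Magi2, by 1.47-fold, and the kinase gene Prkcz, by 1.48-fold. The list was split, with 9 of 17 log2 fold changes above 0 and a median of 0.03. Tjp1, a direct partner of claudins, went from 8345 and 8134 to 5801 and 5842, while the means of Cldn11 were nearly equal.

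**Figure D5:**
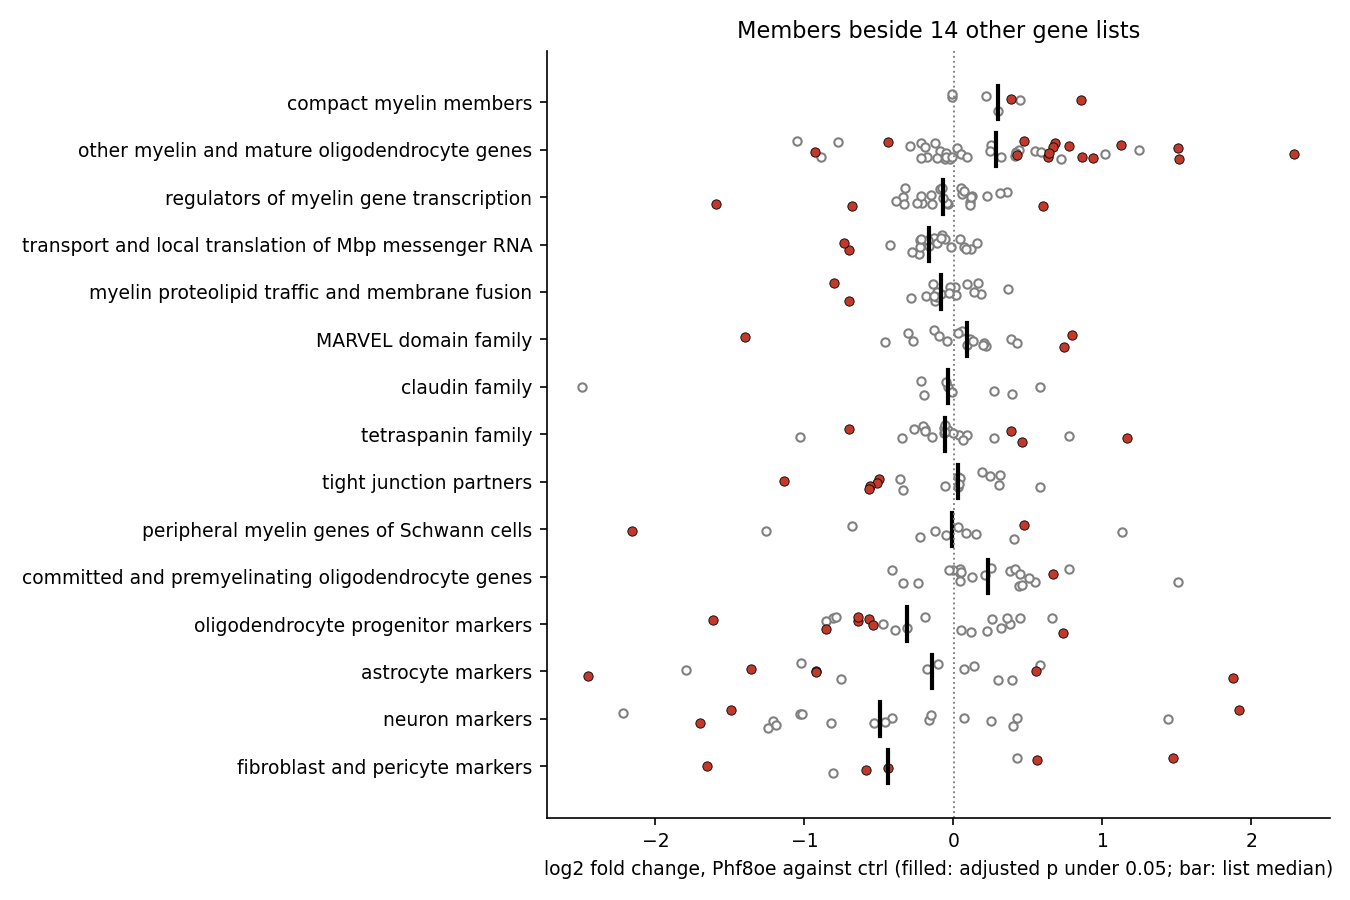
Log2 fold change of every measured gene of the 7 members and of the lists beside them, except the microglia markers, which are not drawn. Filled points are past an adjusted p of 0.05, bars give each list's median and a dotted line the median of all genes. The members' median is 0.30 and that of the other myelin genes 0.29, and the median of the progenitor markers is -0.31.

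Some markers of other cell types also passed the test, beside 2.99% of all genes higher and 4.65% lower. Of 23 progenitor markers 6 fell and 1 rose, Rlbp1, by 1.66-fold. The sums of the 23 went from 239457 and 247815 in ctrl to 237966 and 199664 in Phf8oe. Pdgfra, the receptor that defines progenitors, fell from 18113 and 17240 to 10250 and 9286. Of 16 astrocyte markers 4 fell and 2 rose, with sums of 277982 and 290992 against 160805 and 170103. Of these sums Gfap, an astrocyte filament gene, made up 79141 and 80736 against 10834 and 19613. The 2 that rose were Aldh1l1, from 9 and 10 to 32 and 44, and Slc1a3, from 1063 and 1192 to 1614 and 1692. Of 20 neuron markers 2 fell and 1 rose, with sums of 53257 and 49516 against 30053 and 28769. Of these sums Reln made up 19228 and 19361 against 6947 and 6748. The neuron marker that rose was Nrgn, from 9 and 12 to 32 and 55. Of 7 fibroblast and pericyte markers 3 fell (Col1a1, Sparc and Col5a1) and 2 rose (Fbln1 and Postn). The sums of the 7 ran from 33055 to 33136 in ctrl and from 23369 to 24063 in Phf8oe. Of 4 microglia markers 0 passed in limma, in limma-voom or at an unadjusted p under 0.05. Schwann cells, the myelin-forming cells of nerves, also express Mbp, Mal and Pllp. Of 12 genes of peripheral myelin 1 rose and 1 fell, with sums of 74311 and 68439 against 94359 and 95689, a total that includes a gene of central myelin. Of 28 defining markers, 8 were not analysed here, 3 of the 4 for microglia and 3 of the 4 for fibroblasts among them. None of the others was at 0, in a table whose lowest gene mean is 6. The part of other cell types in the members' values was not tested.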

How the data were processed

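RNA-seq was done on 4 CG4 libraries with paired reads of 150 bases, per the labels. The submitters' processing notes name STAR 2.5.2b, Trimmomatic 0.36, bcl2fastq 2.20 and DESeq2, with the builds rn6 and Rnor_6.0. Not given in the sources used here are the gene counter, its annotation and use of strand, and the filter on genes. Values deposited by the authors were read as signal, namely counts scaled per library and rounded. The labels call them raw, but all 85 whole numbers that such scaling would skip in Phf8oe replicate 2, in the range searched, were absent. Limma was therefore used, as planned for scaled values. The count test planned for unscaled counts was not run.

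Values were tested with limma 3.58.1 (R 4.3.3) on log2(value + 1), which understates changes of low genes. Genes were kept when 2 or more libraries held a value of at least 10. The group was the only term, with robust moderation that followed the mean (2 residual degrees of freedom). Tests were two-sided, with Benjamini-Hochberg adjustment over all genes and a threshold of 0.05. The value of 1 read (0.8445, 1.0176, 0.9549 and 1.4159 in ctrl and Phf8oe replicates 1 and 2) was estimated from the spacing of the values. The procedure was also run on simulated data, with added changes larger than that of any member. That run does not show how well changes of the members' size are found. The members and lists were chosen with earlier results of these data known. Named were all members, Phf8, up to 5 genes past the threshold with the smallest p in each list (the 2 most abundant where none passed), 3 abundant relatives in each family, and 3 genes of like pattern per member. A few of the genes so chosen are not reported here. Mag, Mog and cell type markers given with values were added after their values were seen. Other software was scipy 1.17.1, pandas 2.3.3, numpy 2.4.6, matplotlib 3.10.9 and Python 3.11.15.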

Additional observations from a re-analysis of the deposited data

How the results depend on the processing

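Mbp, Tspan2, Mobp and Cnp kept a positive log2 fold change in the main analysis and all 17 alternatives, from 0.79 to 0.93 for Mbp, 0.35 to 0.43 for Tspan2, 0.29 to 0.61 for Mobp and 0.25 to 0.35 for Cnp, and neither Mobp nor Cnp passed in any. The number of members called was 1 (Mbp) without robust moderation and 0 without the variance trend, where no gene at all passed in limma (3133 genes, 4 of them members, at an unadjusted p under 0.05). It ranged from 0 to 2 with a library left out, when the genes called ranged from 20 to 2145. Upper quartile scaling, which shifts all genes alike and put their median log2 fold change at 0.0455, turned the 430 higher and 668 lower calls to 614 and 598, and with that shift the log2 fold changes of Cldn11 and Opalin to 0.033 and 0.031. With a library left out Cldn11 ranged from -0.29 to 0.28, Opalin from -0.27 to 0.25 and Pllp from -0.19 to 0.63. With the replicate number as a block (replicate block), 373 genes and 1 member, Mbp, passed, Tspan2 did not (adjusted p = 0.106) and Phf8 did (adjusted p = 0.0313). The replicate deviations correlated at -0.13 across genes, and a crossed replicate block, added after seeing the data, gave 2354 genes and 2 members. The cause of these differences was not tested.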
